A study of Mus musculus with 6 samples.

Results

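The nuclear-encoded subunits of respiratory complexes III, IV and V and cytochrome c were described in the gastrocnemius, a calf muscle that is mostly fast-twitch in mice. They were taken as the protein-coding genes whose symbols begin with Uqcr, Cox4 to Cox8 followed by a letter, or Atp5, together with Cyc1 and Cycs. These were 43 of the 25344 genes measured: 9 of complex III, 16 of complex IV, 17 of complex V and 1 cytochrome c. A further 6 genes with such symbols were annotated as pseudogenes and were left out. Some genes caught by their symbols are not core subunits, such as Cox7a2l, a factor of supercomplexes, and Atp5s, a coupling factor. RNA was sequenced in 3 libraries of HSA-NRTN mice and 3 libraries of wild-type littermates (WT). HSA-NRTN mice carry an NRTN transgene under the human alpha-skeletal actin promoter, so neurturin is made by the muscle fibres themselves. The labels give neither age nor sex nor how many animals a library came from, and p-values therefore reflect how these particular libraries vary.

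Complex III passes electrons from ubiquinol to cytochrome c, a small soluble carrier. Complex IV, cytochrome c oxidase, hands them on to oxygen, and both complexes pump protons across the inner mitochondrial membrane. Complex V, the ATP synthase, lets the protons flow back through a ring of c subunits and makes ATP in its catalytic head. Most subunits are encoded in the nucleus and a few in the mitochondrial genome. Several complex IV subunits exist in a form of heart and skeletal muscle (Cox6a2, Cox7a1, Cox8b) and a form found in most tissues (Cox6a1, Cox7a2, Cox8a). The oxidative capacity of a muscle fibre is known to vary with its content of these complexes.

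The promoters of 4 members are shown, 5′ to 3′, because the results below turn on them: Cox6a1 and Atp5g3 had the largest changes of complexes IV and V with all 6 libraries, and Cox8a and Cox8b are the ubiquitous and muscle forms of 1 subunit. Each is the 250 bases before the RefSeq start of the gene (GRCm38.p6), and all 4 lie on the minus strand. The windows are chr5:115348959-115349208 for Cox6a1, chr2:73911327-73911576 for Atp5g3, chr19:7217617-7217866 for Cox8a and chr7:140900447-140900696 for Cox8b. Capitals mark matches, on either strand, to motifs named after NRF1 (GCGCANGCG), ERR (AAGGTCA), ETS factors (CCGGAAG), YY1 (AANATGGCG), the TATA box (TATAAA) and MEF2 (CTATTTATA).
Cox6a1 promoter: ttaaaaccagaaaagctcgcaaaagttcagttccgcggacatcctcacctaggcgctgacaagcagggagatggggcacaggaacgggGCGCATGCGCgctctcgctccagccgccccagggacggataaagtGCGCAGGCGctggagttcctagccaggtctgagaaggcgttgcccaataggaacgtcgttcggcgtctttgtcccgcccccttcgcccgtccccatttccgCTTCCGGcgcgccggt
Atp5g3 promoter: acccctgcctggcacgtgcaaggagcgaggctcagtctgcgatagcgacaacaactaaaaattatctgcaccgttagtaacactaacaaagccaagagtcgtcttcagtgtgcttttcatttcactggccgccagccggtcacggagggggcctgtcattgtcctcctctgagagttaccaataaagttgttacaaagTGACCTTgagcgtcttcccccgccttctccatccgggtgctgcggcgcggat
Cox8a promoter: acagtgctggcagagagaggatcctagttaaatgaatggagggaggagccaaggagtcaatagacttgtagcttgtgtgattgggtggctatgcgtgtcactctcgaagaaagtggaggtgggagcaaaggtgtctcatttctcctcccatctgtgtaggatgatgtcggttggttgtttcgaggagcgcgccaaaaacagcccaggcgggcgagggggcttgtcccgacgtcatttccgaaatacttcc
Cox8b promoter: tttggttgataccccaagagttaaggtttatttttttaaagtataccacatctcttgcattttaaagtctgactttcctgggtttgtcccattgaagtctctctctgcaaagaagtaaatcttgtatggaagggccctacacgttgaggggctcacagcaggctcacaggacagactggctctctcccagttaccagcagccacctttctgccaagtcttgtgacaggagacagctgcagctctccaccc

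The Cox6a1 window held 3 NRF1 matches, 2 of them overlapping on opposite strands, and an ETS match at 16 to 10 bases before the start. The Atp5g3 window held an ERR match, read on the opposite strand. No match to these motifs was found in the Cox8a or Cox8b windows. RefSeq promoters were matched for 31 of the 43 members and for 27025 genes in all. The NRF1 motif was found in 7 of the 31 members (22.6%), against 5.86% of all genes. This 9-base form was chosen after the counts of a form 1 base longer had been seen; the longer form was found in 5 members (16.1%), against 4.23% of all genes. The ETS motif was found in 8 members (25.8%), against 7.83% of all genes, and the ERR motif in 2 (6.45%), against 4.70%. The YY1 and TATA motifs were each found in 1 member (3.23%), against 1.29% and 14.3% of all genes. The MEF2 motif was found in 0 members, against 0.459% of all genes, and with the base more in 0 members, against 0.167%. The E-box CANNTG, which is not marked above, was found in 20 members (64.5%), against 69.3% of all genes. The windows held a median of 14 CpG dinucleotides in the members, against 6 in all genes. They held 26 in Cox6a1, 15 in Atp5g3 and 11 in Cox8a, but 1 in the muscle form Cox8b. A match is a string of letters and shows no binding.

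Depth was 28580513, 50291845 and 30562889 reads in genes for HSA-NRTN, against 27418154, 31543531 and 35243260 for WT. Nrtn itself was at 178, 201 and 169 FPKM (reads per kilobase of gene, scaled to the library's total) in HSA-NRTN, against 3.21, 1.70 and 4.33 FPKM in WT, which fits the labels of all 6 libraries. The deposited FPKM are scaled to each library's total reads, and by the authors' size factors, which were recovered from their deposited values, HSA-NRTN levels come out lower by a log2 difference of 0.30. The median gene changed by 0.18 (log2) with the values as deposited and by −0.05 with the size factors, so counts of members are given on both scales. In whole muscle, fewer cells of a type and less RNA per cell cannot be told apart. Muscle fibre markers summed to 19140 to 21679 FPKM in HSA-NRTN, against 30993 to 35114 in WT, and 3 of 5 fell and 1 rose on both scales. As deposited, Myh4 averaged 2635 FPKM in HSA-NRTN and 8761 in WT, while Myh1 averaged 1829 and 621. Ckm and Acta1 also fell, and Ttn was not called. The 5 macrophage markers all rose on both scales, with sums of 241 to 261 FPKM in HSA-NRTN, against 34.9 to 45.7 in WT. Sums of 3 eosinophil markers were 2.91 to 5.74 FPKM against 0.128 to 0.143, and of 4 fibroblast markers 282 to 358 against 198 to 211. They were 30.6 to 40.0 against 20.6 to 24.3 for 4 Schwann cell markers, 71.5 to 87.9 against 56.5 to 59.7 for 4 endothelial markers and 145 to 183 against 111 to 131 for 4 pericyte and smooth muscle markers. Sums were 161 to 169 in HSA-NRTN against 82.1 to 135 in WT for 4 red blood cell markers, 28.1 to 48.7 against 19.6 to 31.1 for 4 white adipocyte markers and 2.72 to 3.49 against 1.07 to 2.29 for 3 brown adipocyte markers. Of the white adipocyte markers, Lep averaged 1.43 ± 0.50 FPKM in HSA-NRTN and 3.90 ± 2.87 in WT (SD, n = 3 each). In this list 3 rose and 0 fell as deposited, and 1 rose and 1 fell with the size factors. Of the brown adipocyte markers, Ucp1 was near 0 and below the filter. It was at 0.0214, 0.0122 and 0 FPKM in HSA-NRTN, against 0.134, 0 and 0 FPKM in WT. The 4 B and T cell markers stayed under 1 FPKM in sum in every library, at 0.745 to 0.837 in HSA-NRTN against 0.264 to 0.444 in WT. None of these 4 passed the filter. The 5 slow fibre markers summed to 67.5 to 123 in HSA-NRTN against 68.8 to 222 in WT. All sums are on the deposited scale. With the size factors 0 of 4 red blood cell markers rose (4 as deposited), 1 of 4 endothelial (3) and 1 of 4 pericyte and smooth muscle (4). So did 3 of 4 fibroblast (4), 2 of 4 Schwann cell (4), 1 of 2 tested brown adipocyte (2) and the 1 tested eosinophil marker (1). Of the slow fibre markers 3 fell with the size factors and 1 as deposited. No marker analysed was at 0 in all 6 libraries, and Epx (eosinophil) and Elovl3 (brown adipocyte) were not analysed. The part of these other cells in the subunit results was not tested.

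The subunit genes of all 3 complexes were higher in HSA-NRTN muscle. Of the 41 members with a mean of at least 1 FPKM, 40 rose and 0 fell (limma on log2(FPKM + 1), Benjamini-Hochberg adjusted p under 0.05 over 10755 genes). Over all tested genes, 41.6% were called higher and 11.7% lower. The median log2 change of the members was 0.60. By complex, 9 of 9 members of complex III rose (median 0.63), 14 of 15 of complex IV (median 0.63), 16 of 16 of complex V (median 0.59) and Cycs. With the size factors, 20 of 41 members rose and 0 fell, against 21.1% and 29.9% of all genes, with a median of 0.30. These were 6 of complex III, 7 of complex IV and 7 of complex V, and all 41 fitted changes lay above 0. The count with the size factors fell to 9 without WT 3 and to 11 without HSA-NRTN 1. The share of all genes called higher in those fits is not given here. Values of the groups did not overlap for 38 of the 41, HSA-NRTN being higher, against 47.0% of all genes; with the size factors they did not overlap for 21, against 24.6%. By the test in the authors' deposited table, 25 of the 43 members were higher and 0 lower, against 18.0% and 17.8% of its 18953 genes with an adjusted p.

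**Figure D1:**
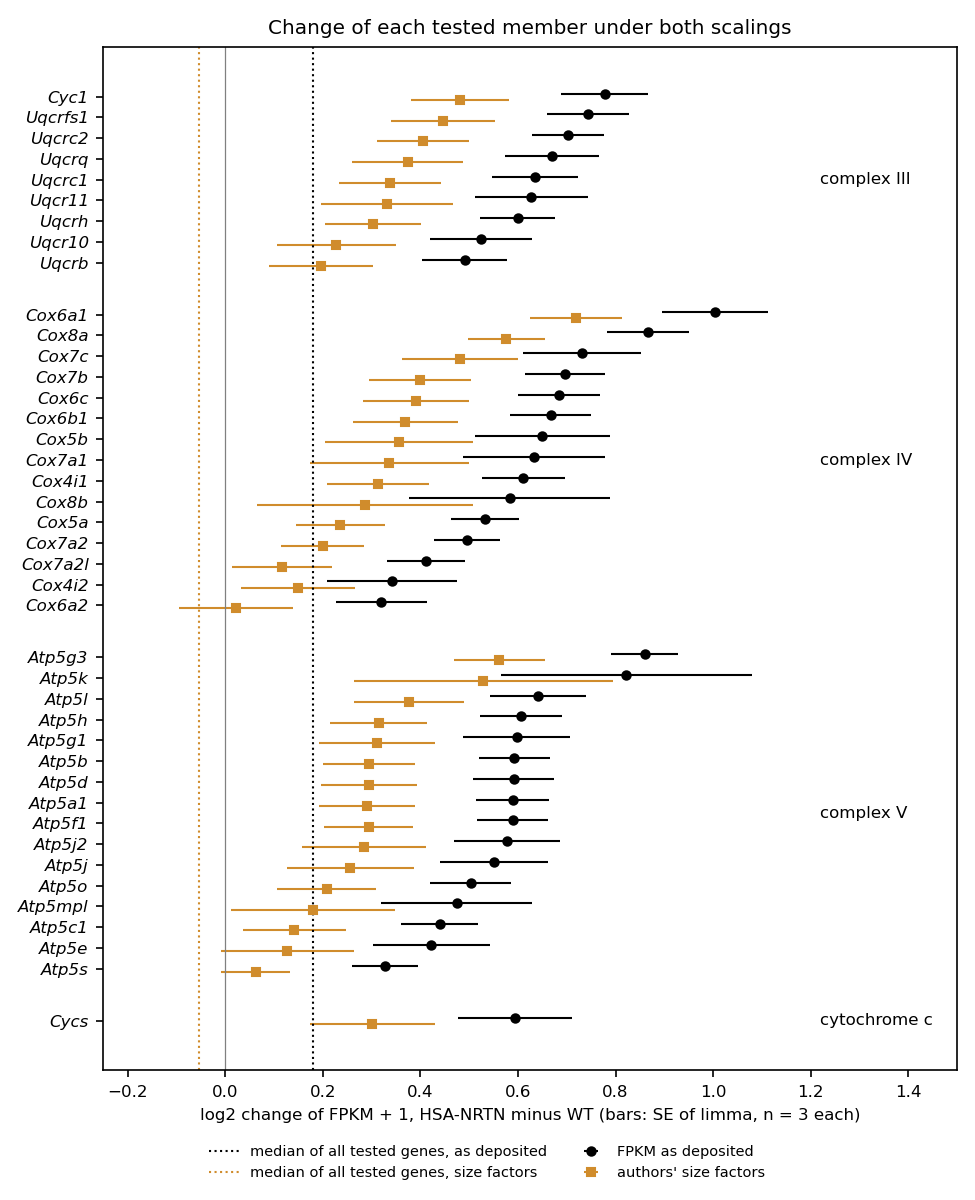
Log2 change (HSA-NRTN over WT, on log2(FPKM + 1)) of each of the 41 tested members, by complex, with the values as deposited and with the authors' size factors; bars are limma's SE. All fitted changes lie above 0 on both scales, from 0.32 (Cox6a2) to 1.00 (Cox6a1) as deposited.

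As a share of all reads, the 43 members took 1.97%, 1.84% and 1.84% in the HSA-NRTN libraries, against 1.27%, 1.24% and 1.20% in the WT libraries. Complex V made up most of this, with 1.12% to 1.21% of reads in HSA-NRTN, against 0.750% to 0.784% in WT. Complex III took 0.393% to 0.428% against 0.243% to 0.270%, and complex IV 0.296% to 0.314% against 0.190% to 0.221%. In each complex the HSA-NRTN libraries all lay above the WT libraries.

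**Figure D2:**
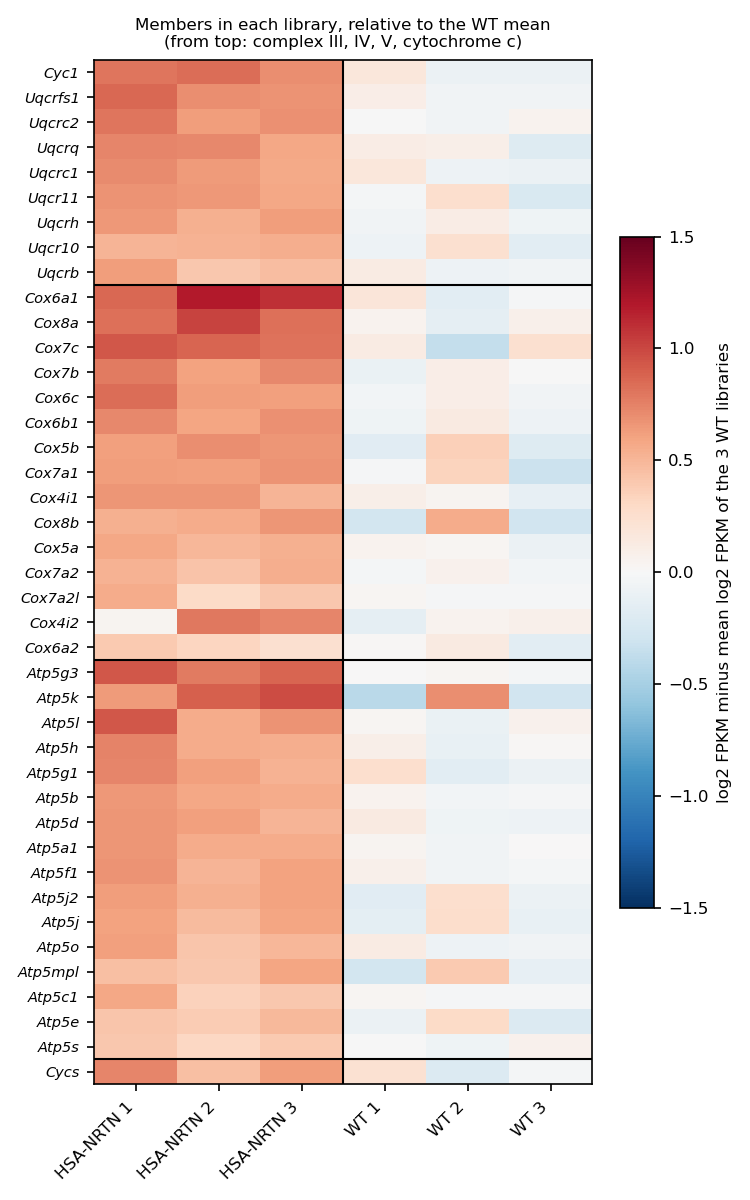
Level of each tested member in each of the 6 libraries, as log2 FPKM minus the mean log2 FPKM of the WT libraries, with HSA-NRTN left of WT and members grouped by complex. The HSA-NRTN columns lie above the WT mean for all 41, and WT 2 lies above the other WT libraries for short transcripts such as Atp5k and Cox8b.

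One WT library stood apart for short transcripts. In 9 members with a median coding transcript of at most 500 bases, WT 2 lay above the mean of the other WT libraries by a median of 0.43 (log2; range 0.17 to 1.04), and in 32 longer members by a median of −0.07 (range −0.54 to 0.54). Some longer members thus also stood high in WT 2, such as Cox5b (0.54). Over all tested genes, the figures were 0.22 for 66 short and −0.05 for 10091 longer ones. Without WT 2, 40 members rose (33.6% of all genes did), with a median of 0.63. Without WT 2 and with the size factors 21 rose (16.7% of all genes), and 12 of them were also among the 20 called with WT 2. The calls lost there were of Uqcrc1, Cox4i1, Atp5a1, Atp5b, Atp5d, Atp5f1, Atp5h and Atp5l, and those gained of Uqcr10, Uqcr11, Cox5b, Cox7a1, Cox8b, Atp5j, Atp5j2, Atp5k and Atp5mpl. Of the 9 short members, 8 were called with the size factors without WT 2 and 2 with it; of the 32 longer members 13 and 18. RNA quality is not in the labels, and its part was not tested.

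**Figure D3:**
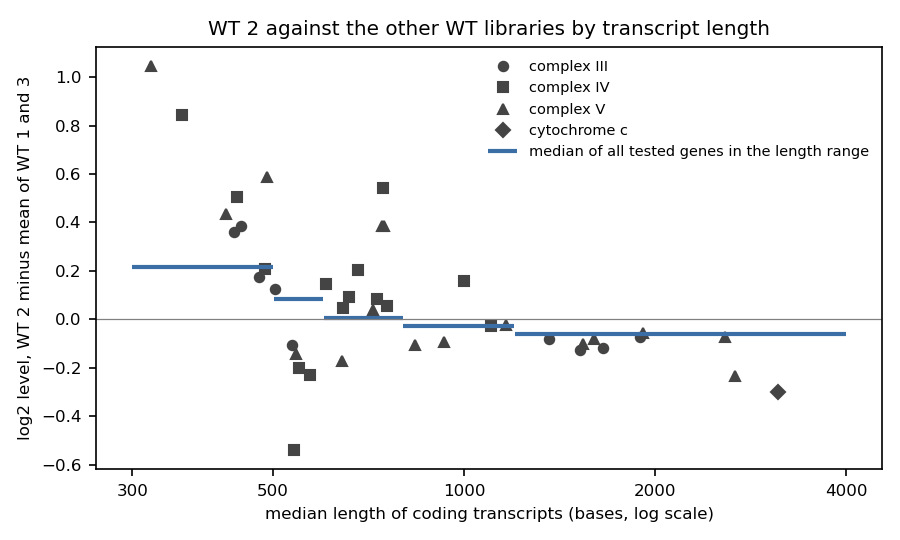
Level in WT 2 minus the mean of WT 1 and WT 3 (log2) of each tested member, against the median length of its coding transcripts (bases, log axis); symbols mark the complex and lines the median of all tested genes in a range of lengths. The line lies at 0.22 for genes of at most 500 bases, and Atp5k, the shortest member, lies at 1.04.

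In complex III the electron-carrying subunits Cyc1 and Uqcrfs1 had the largest changes with all 6 libraries; without WT 2 Uqcr11 (0.76) lay above Cyc1 (0.74) and Uqcrfs1 (0.72). Cyc1, cytochrome c1, which passes electrons to cytochrome c, was at 280, 288 and 261 FPKM in HSA-NRTN, against 180, 151 and 151 FPKM in WT. Every HSA-NRTN library lay above every WT library, and Cyc1 rose by 0.78 ± 0.09 (log2, SE; adjusted p = 0.000243; a change of 0.48 and an adjusted p of 0.00507 with the size factors, given in this order from here on). Uqcrfs1, the Rieske iron-sulfur protein, was at 561, 499 and 493 FPKM in HSA-NRTN, against 331, 297 and 297 FPKM in WT. The groups again lay apart, and Uqcrfs1 rose by 0.74 ± 0.08 (adjusted p = 0.000225; 0.45 and 0.00955 with the size factors). Uqcrc1 and Uqcrc2, the core proteins, averaged 263 ± 12.5 and 342 ± 20.7 FPKM in HSA-NRTN, against 170 ± 17.3 and 210 ± 7.08 in WT (SD, n = 3 each). Uqcrh, the hinge protein that helps cytochrome c1 bind its partner, averaged 172 ± 7.33 FPKM against 114 ± 8.10, and Uqcrq, a small membrane subunit, 145 ± 8.64 against 90.8 ± 10.1. These 4 rose on both scales, but Uqcrc1 was not called with the size factors without WT 2 (limma adjusted p = 0.0863).

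Uqcrb and Uqcr10, small subunits, had the smallest changes of complex III with all 6 libraries; without WT 2 these were in Uqcrb (0.46) and Uqcrc1 (0.60), and Uqcr10 was at 0.64. Uqcrb, which lies beside the ubiquinone site, was at 121, 103 and 108 FPKM in HSA-NRTN, against 85.6, 74.5 and 75.3 FPKM in WT. Uqcr10 was at 208, 208 and 213 FPKM in HSA-NRTN, against 138, 172 and 130 FPKM in WT. Neither gene's groups overlapped, but in WT 2 Uqcr10 stood closer to the HSA-NRTN libraries. Uqcrb rose by 0.49 ± 0.09 (adjusted p = 0.00213) and Uqcr10 by 0.52 ± 0.10 (adjusted p = 0.00369); with the size factors their changes were 0.20 and 0.23 (adjusted p = 0.157 and 0.151). Uqcr11 was close to Uqcr10, at 185 ± 5.76 FPKM against 120 ± 20.6 (SD, n = 3 each). Both Uqcr10 and Uqcr11 were called with the size factors once WT 2 was left out (adjusted p = 0.0242 and 0.0141). Cycs, cytochrome c itself, was at 61.2, 50.4 and 57.0 FPKM in HSA-NRTN, against 43.1, 32.0 and 36.1 FPKM in WT. It rose by 0.59 ± 0.12 (adjusted p = 0.00348; 0.30 and 0.082 with the size factors, where it was not called).

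In complex IV the ubiquitous form of subunit 6a had the largest fitted change of the 41 tested members with all 6 libraries; without WT 2 Cox6a1 was at 0.93 and Atp5k at 1.16. Cox6a1 (chromosome 5, 115345642 to 115348981, GRCm38) was at 26.6, 33.5 and 31.3 FPKM in HSA-NRTN, against 16.5, 13.1 and 14.4 FPKM in WT. Its groups lay well apart, and it rose by 1.00 ± 0.11 (adjusted p = 0.000181; 0.72 and 0.000565 with the size factors). The muscle form Cox6a2 (chromosome 7, 128205435 to 128206387) was at 685, 655 and 620 FPKM in HSA-NRTN, against 530, 575 and 469 FPKM in WT. The groups did not overlap, and its change of 0.32 ± 0.09 (adjusted p = 0.0197) was the smallest of complex IV. With the size factors Cox6a2 changed by 0.02 (adjusted p = 0.888), and its call as deposited was lost without HSA-NRTN 1, HSA-NRTN 2 or WT 3 (highest adjusted p = 0.0596).

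Cox6a2 stayed the main form, with 19.6 to 25.7 times the FPKM of Cox6a1 in HSA-NRTN, against 32.1 to 43.7 times in WT. The log2 ratio of Cox6a2 to Cox6a1 averaged 4.43 ± 0.22 in HSA-NRTN and 5.16 ± 0.25 in WT (SD, n = 3 each), a difference of −0.73. The groups did not overlap, and the exact two-sided permutation p was 0.1, the smallest that 3 against 3 can give (0.4 adjusted over 4 ratios). A ratio within a library does not depend on the scaling. Without WT 2 the difference was −0.59.

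**Figure D4:**
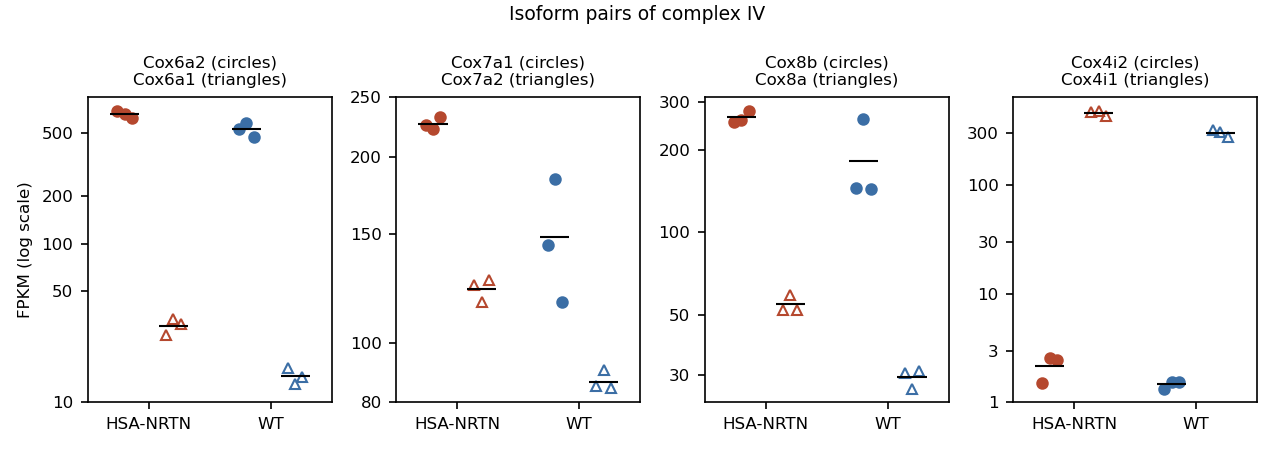
FPKM (log axis) of the muscle or second form and of the ubiquitous form of 4 complex IV subunits in each library, HSA-NRTN left of WT. Points are libraries; Cox6a1 lies at 26.6 to 33.5 FPKM in HSA-NRTN and at 13.1 to 16.5 FPKM in WT, while Cox8b in WT 2 (260 FPKM) lies within the HSA-NRTN range.

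For subunit 7a the ratio of the forms overlapped between the groups. Cox7a1, the muscle form, was at 225, 222 and 232 FPKM in HSA-NRTN, against 144, 184 and 117 FPKM in WT. Cox7a2, the ubiquitous form, was at 124, 117 and 126 FPKM in HSA-NRTN, against 85.0, 90.1 and 84.3 FPKM in WT. Both rose, by 0.63 ± 0.15 (adjusted p = 0.00726) and 0.50 ± 0.07 (adjusted p = 0.000565), but neither was called with the size factors, where their changes were 0.34 and 0.20 (adjusted p = 0.117 and 0.0827). The ratio of Cox7a1 to Cox7a2 was 1.82, 1.91 and 1.84 in HSA-NRTN, against 1.70, 2.04 and 1.38 in WT. The WT ratios spanned the HSA-NRTN ones, with a log2 difference of 0.14 (exact permutation p = 0.5, adjusted 0.9). The related Cox7a2l was at 122, 102 and 110 FPKM in HSA-NRTN, against 84.9, 82.0 and 82.4 FPKM in WT, and rose as deposited (adjusted p = 0.00319) but not with the size factors (adjusted p = 0.369).

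For subunit 8 the values of the muscle form turned on WT 2. Cox8b, the muscle form, was at 255, 259 and 278 FPKM in HSA-NRTN, against 146, 260 and 144 FPKM in WT. WT 2 reached the HSA-NRTN range, and Cox8b rose by 0.58 ± 0.21 (adjusted p = 0.0427) with it and by 0.86 (adjusted p = 0.000261) without it. Leaving out any other library ended the call (highest adjusted p = 0.128). With the size factors Cox8b changed by 0.29 and was not called (limma adjusted p = 0.308). Without WT 2 it was called there (limma adjusted p = 0.00371). Cox8a, the ubiquitous form, was at 52.1, 59.1 and 52.2 FPKM in HSA-NRTN, against 30.4, 26.8 and 31.0 FPKM in WT. It rose by 0.87 ± 0.08 (adjusted p = 0.000104; 0.58 and 0.000661 with the size factors), with no overlap. The ratio of Cox8b to Cox8a was 4.89, 4.39 and 5.34 in HSA-NRTN, against 4.78, 9.71 and 4.65 in WT. The log2 difference of −0.30 (exact permutation p = 0.7, adjusted 0.9) became 0.04 without WT 2.

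**Figure D5:**
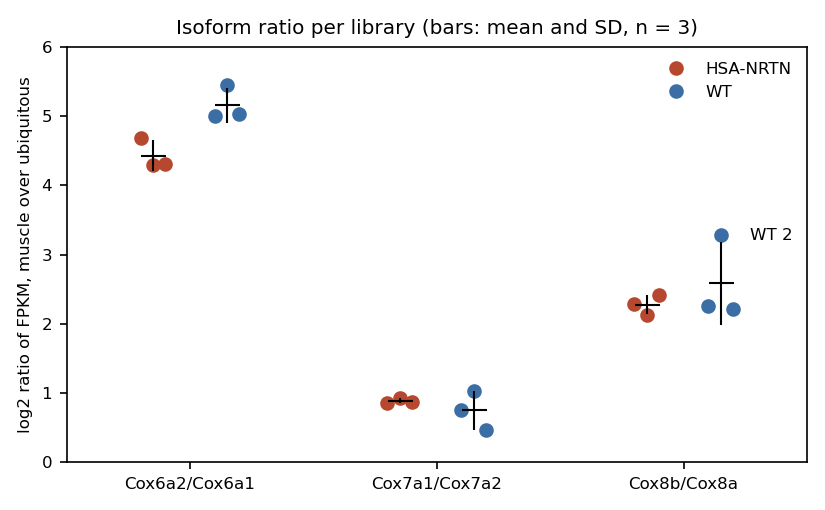
Log2 ratio of the FPKM of paired complex IV forms in each library, HSA-NRTN left of WT, with group means. For Cox6a2 over Cox6a1 the means are 4.43 and 5.16 and no library overlaps; for the other ratios the groups overlap.

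Cox4i1, the usual form of subunit 4, was at 475, 477 and 429 FPKM in HSA-NRTN, against 320, 308 and 275 FPKM in WT. It rose as deposited (0.61 ± 0.08, adjusted p = 0.000643), and the size factors kept the call at 0.31 (adjusted p = 0.0357). Without WT 2 the size-factor call of Cox4i1 was lost (limma adjusted p = 0.0637). Cox4i2, a form known from lung and low oxygen, was at 1.51, 2.55 and 2.45 FPKM in HSA-NRTN, against 1.34, 1.53 and 1.55 FPKM in WT. It rests on 29 to 101 reads per library, its groups overlapped, and it was the member not called (0.34 ± 0.13, adjusted p = 0.0601). Without HSA-NRTN 1 it was called higher, with a change of 0.50 (adjusted p = 0.0023; 0.28 and 0.0256 with the size factors). The log2 ratio of Cox4i2 to Cox4i1 was −7.77 ± 0.46 in HSA-NRTN and −7.68 ± 0.21 in WT (SD, n = 3 each), with an exact permutation p of 0.9 (0.9 adjusted).

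Among the other subunits of complex IV, Cox6b1, Cox6c, Cox7b and Cox7c rose on both scales. Cox6b1, which faces the intermembrane space, averaged 372 ± 16.9 FPKM in HSA-NRTN and 234 ± 20.0 in WT (SD, n = 3 each). Cox6c averaged 71.0 ± 6.41 FPKM in HSA-NRTN and 43.7 ± 2.61 in WT. Cox7c averaged only 7.43 ± 0.29 FPKM in HSA-NRTN and 4.13 ± 0.85 in WT, on 113 to 422 reads per library. Whether so low a value reflects the level of its transcript was not tested. Cox5a and Cox5b, at 220 and 80.5 FPKM in HSA-NRTN and 152 and 51.7 in WT, rose as deposited and not with the size factors (adjusted p = 0.0603 and 0.0804), and Cox5b was called there without WT 2 (adjusted p = 0.00271). Cox6b2, a testis form, was below the filter, with 14, 23 and 21 reads in HSA-NRTN, against 7, 7 and 3 reads in WT.

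In complex V, Atp5a1 and Atp5b of the catalytic head had the highest FPKM of all members. Atp5a1, the alpha subunit, was at 1209, 1118 and 1118 FPKM in HSA-NRTN, against 785, 738 and 764 FPKM in WT. Atp5b, the catalytic beta subunit, was at 1019, 970 and 954 FPKM in HSA-NRTN, against 676, 633 and 641 FPKM in WT. The groups lay apart for both, and both rose by 0.59 ± 0.07 (adjusted p = 0.000413 for Atp5a1 and 0.000344 for Atp5b). With the size factors both rose by 0.29 (adjusted p = 0.0378 and 0.0317), and neither was called there without WT 2 (adjusted p = 0.11 and 0.0945). Atp5c1, the gamma shaft that turns within the head, averaged 389 ± 33.1 FPKM in HSA-NRTN and 286 ± 5.10 in WT (SD, n = 3 each) and rose as deposited only. Atp5d, the delta subunit of the shaft, averaged 194 ± 10.6 FPKM in HSA-NRTN and 129 ± 10.8 in WT and rose on both scales. With the size factors Atp5d was not called without WT 2 (limma adjusted p = 0.106).

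The c subunit, whose ring turns as protons pass, is made from 3 genes that encode the same mature protein. Atp5g3 (chromosome 2, 73908447 to 73911326) was at 395, 357 and 380 FPKM in HSA-NRTN, against 208, 211 and 203 FPKM in WT. Its groups lay far apart, and it rose by 0.86 ± 0.07 (adjusted p = 4.11e-05; 0.56 and 0.00169 with the size factors). Atp5g1 was at 30.4, 28.1 and 26.2 FPKM in HSA-NRTN, against 21.7, 16.4 and 17.2 FPKM in WT, and rose by 0.60 ± 0.11 (adjusted p = 0.00249; 0.31 and 0.0574 with the size factors). Atp5g2 was below the filter, at 0.418, 0.368 and 0.371 FPKM in HSA-NRTN, against 0.261, 0.416 and 0.119 FPKM in WT. Atp5g3 made up 93.0% ± 0.44 of the FPKM of these genes in HSA-NRTN and 91.8% ± 1.15 in WT (SD, n = 3 each; exact permutation p = 0.2).

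The stalk and small subunits of complex V had lower FPKM than the alpha and beta subunits. Atp5k, subunit e of the membrane part, was at 74.1, 88.3 and 93.6 FPKM in HSA-NRTN, against 35.8, 77.0 and 38.9 FPKM in WT. WT 2 lay within the HSA-NRTN range, and the change of 0.82 ± 0.26 (adjusted p = 0.0264) became 1.16 without WT 2 (adjusted p = 0.000267) and was lost without HSA-NRTN 2, HSA-NRTN 3, WT 1 or WT 3. With the size factors Atp5k changed by 0.53 and was not called (limma adjusted p = 0.128). Without WT 2 it was called there (limma adjusted p = 0.000756). Atp5e, the epsilon subunit of the head, was at 104, 101 and 109 FPKM in HSA-NRTN, against 73.2, 95.2 and 67.8 FPKM in WT, a rise of 0.42 ± 0.12 (adjusted p = 0.0178; 0.459 with the size factors). Atp5mpl, a small membrane subunit, averaged 76.9 ± 5.28 FPKM in HSA-NRTN and 56.1 ± 14.1 in WT (SD, n = 3 each; adjusted p = 0.0315; 0.396 with the size factors). Its call and that of Atp5e were lost when HSA-NRTN 3, WT 1 or WT 3 was left out, and that of Atp5mpl also without HSA-NRTN 1 or HSA-NRTN 2. Atp5s was at 9.73, 9.11 and 9.61 FPKM in HSA-NRTN, against 7.33, 7.01 and 7.71 FPKM in WT. It had the smallest rise of complex V, 0.33 ± 0.07 (adjusted p = 0.00431; 0.492 with the size factors). Of the stalk and membrane subunits, Atp5f1, Atp5h and Atp5l rose on both scales; Atp5o, Atp5j and Atp5j2 rose as deposited only.

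Across the size-factor fits with all libraries and with each of the 6 left out, 8 of the 41 members were called higher in every one of the 7 fits, against 14.3% of all genes. They were Cyc1, Uqcrc2, Uqcrfs1, Cox6a1, Cox7b, Cox7c, Cox8a and Atp5g3. Complex III gave 3 of its 9 tested members, complex IV 4 of 15 and complex V 1 of 16.

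The order of the members by FPKM was nearly the same in both groups. Atp5a1, Atp5b, Cox6a2, Uqcrfs1 and Cox4i1 were ranked 1 to 5 in both. The order depends on the gene length used. Per kilobase of median coding transcript, Atp5b (1438) lay above Atp5a1 (929) in WT, and Uqcrfs1 (309) below Cox5a (494). Cox4i2 was the lowest tested member, ranked 41 in both. FPKM uses the counted exon length, which for Atp5l (6443 bases) is far above its median coding transcript (544 bases), so levels of such genes read low. Exons of some members overlap a gene on the opposite strand, by 19.7% for Uqcrc2 with Pdzd9 and by 12.7% for Atp5j with Gabpa; whether reads were counted by strand is not stated, so these cannot be told apart. The partners with a value were at most at 11.5 FPKM.

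Among the other parts of the chain, complex II, which feeds electrons to ubiquinone, had 4 of 4 genes higher (median 0.63; 41.6% of all genes were higher). With the size factors 4 were higher (21.1% of all genes), and 1 of them, Sdhb, without WT 2. Sdhb, its iron-sulfur subunit, was at 289, 265 and 258 FPKM in HSA-NRTN, against 163, 139 and 142 FPKM in WT. Of 36 complex I genes 32 rose (88.9%) and 0 fell, with a median of 0.47. With the size factors 8 rose (22.2%), near the 21.1% of all genes; Ndufab1, Ndufs1 and Ndufv1 had the smallest p. Of 29 assembly factors of complexes III to V, 12 rose (41.4%, near the 41.6% of all genes) and 1, Uqcc3, fell (median 0.23). With the size factors 3 of them rose (10.3%) and 6 fell (20.7%), against 21.1% and 29.9% of all genes. Lrpprc, which stabilises mitochondrial mRNA, ranged over 24.0 to 25.8 FPKM in HSA-NRTN, against 15.4 to 17.1 FPKM in WT, the smallest p of this list with Tmem70 and Sco2 next. How these lists differ from the members was not tested.

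The mitochondrial genome encodes 6 subunits of the same complexes, and 3 of them rose as deposited (41.6% of all genes did) and 0 with the size factors (1, mt-Atp8, without WT 2). mt-Co1, the catalytic subunit of complex IV, was at 19462, 16457 and 17769 FPKM in HSA-NRTN, against 10877, 11164 and 11610 FPKM in WT (adjusted p = 0.00114; 0.0521 with the size factors). mt-Cytb of complex III was at 28005, 23782 and 25414 FPKM in HSA-NRTN, against 16750, 18102 and 17554 FPKM in WT (adjusted p = 0.00337; 0.168 with the size factors). mt-Atp8 of complex V was at 200, 243 and 278 FPKM in HSA-NRTN, against 111, 212 and 120 FPKM in WT, where WT 2 reached the HSA-NRTN range (adjusted p = 0.0268; 0.148 with the size factors). The remaining 3 lay far below mt-Co1 and mt-Cytb and varied widely within groups. Whether such low values reflect the level of these transcripts was not tested. mt-Co2 was at 61.3, 42.2 and 17.4 FPKM in HSA-NRTN, against 35.5, 12.8 and 12.2 FPKM in WT. mt-Co3 was at 64.6, 51.3 and 19.1 against 48.5, 13.0 and 12.5, and mt-Atp6 at 89.9, 70.9 and 23.4 against 60.3, 15.7 and 17.7. Their groups overlapped and none was called.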

How the data were processed

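Total RNA of snap-frozen gastrocnemius was made into Illumina TruSeq libraries, per the labels' protocols. The submitters' processing notes name GRCm38 with the tools Cuffdiff, Cufflinks, DESeq2, HTSeq and HISAT2, without versions or roles. The authors deposited 1 table with FPKM per library, a mean signal per gene (mean of reads divided by size factors), log2 fold changes with standard errors, a test score, and p-values; the columns do not name the unit of the library values, which was inferred from the values. Whole reads, size factors and gene lengths were recovered from these columns: 99.98% of 127467 values above 0 came out whole within 0.01 read. Of 25319 genes matched to GENCODE M21, 95.6% had the exon-union length. At 3 reads in a gene of 1 kilobase the FPKM is 0.0597 to 0.109, which covers counting error only.

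The main test was trended limma 3.58.1 in R 4.3.3, fitted without a block to log2(FPKM + 1) of genes averaging 1 FPKM or more, and checked on simulated data. Fold changes on this scale understate low genes. The simulated data held neither a scaling difference between the groups nor a library that stood apart. The check on them therefore does not cover either. Alternatives were a pseudocount of 0.1, no filter, a filter of 5 FPKM, the authors' size factors, quantile normalization, limma-voom on recovered reads, a replicate block and each library left out. Size factors combined with a left-out library or with the block, and a motif form 1 base shorter, were chosen after seeing the data. Isoform ratios were compared with exact two-sided permutation tests. Members, lists and tests were chosen with earlier results of these data known. Named are all members (per library: isoform, catalytic and electron-carrying genes, and the 2 largest and 2 smallest changes of a complex), Nrtn, mitochondrially encoded subunits and up to 3 genes a list by smallest p. Some marker genes are named where their list moved in both directions. The marker genes Epx and Elovl3 were not analysed here.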

Additional observations from a re-analysis of the deposited data

How the results depend on the processing

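With the authors' size factors 20 members were called higher rather than 40 and their median log2 change was 0.30 rather than 0.60; with quantile normalization the median was 0.41. Leaving out single libraries gave 35 to 40 members called higher as deposited, and 9 to 21 with the size factors, with 9 without WT 3, 11 without HSA-NRTN 1, 15 without HSA-NRTN 2 or HSA-NRTN 3, 19 without WT 1 and 21 without WT 2; their medians in that order were 0.26, 0.25, 0.35, 0.33, 0.33 and 0.35. Of all genes, 33.6% were called higher without WT 2 as deposited and 16.7% with the size factors. Such shares for the other left-out libraries and for the replicate block are not given here. No member was called lower under any setting run. Of 819 results for single members under 20 other settings, 2 changed sign: Cox6a2 had −0.047 with the size factors without HSA-NRTN 1 and −0.069 without WT 3. The cause was not tested. With single libraries left out, the log2 difference ranged from −0.86 to −0.59 for Cox6a2/Cox6a1, from −0.0059 (without WT 3) to 0.28 for Cox7a1/Cox7a2, from −0.49 to 0.044 (without WT 2) for Cox8b/Cox8a, and from −0.25 to 0.18 (without HSA-NRTN 1; 0.011 without WT 3) for Cox4i2/Cox4i1. Libraries of the same number shared only a number: their deviations correlated at 0.083, −0.170 and 0.188. With the replicate block 40 members were called higher, Cox8b being lost (adjusted p = 0.0510, limma) and Cox4i2 gained (0.0397); with the size factors and the replicate block there were 22, with a median of 0.30. With 3 libraries a group, exact tests cannot go below 0.1.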
